A study of Drosophila melanogaster with 8 samples.

Results

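The comparison described here sets sitter larvae of Drosophila melanogaster that carry DGCalpha1[3] against sitter control larvae. The allele lies in the gene for the alpha subunit of soluble guanylyl cyclase, listed as Gycalpha99B in current annotation. The comparison comprises 4 of the 8 two-colour spotted cDNA arrays of the series, those whose titles name sitter mutants 1 to 4; the other 4 arrays made the same comparison in Rover larvae. Per the labels, channel 1 of each sitter array held total RNA of untreated whole sitter larvae in the last larval stage, and channel 2 that of untreated DGCalpha1[3] sitter larvae of the same stage. Both channels therefore share the sitter background, a natural variant of larval foraging. The labels give no driver, clone or rescue line for the allele and name no separate cultures or extracts, so each p-value below rests on the variation from array to array alone, and that variation may be technical.

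Soluble guanylyl cyclase is an enzyme of an alpha and a beta subunit that is switched on by nitric oxide and makes the second messenger cGMP. Cyclic GMP acts on protein kinases, on ion channels and on phosphodiesterases, which break it down. In fly larvae the pathway is known for its part in foraging: the foraging gene encodes a cGMP-dependent protein kinase, and sitter larvae carry its less active natural variant and travel shorter paths on food than Rover larvae.

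Each value is a within-array log2 ratio of the mutant and control channels, centred by subtracting the array's median over all features, where a feature is the mean of the spots of 1 gene or 1 spot with no gene name. The labels state neither the dyes of the channels nor which channel is the numerator, so ratios are called positive or negative, with no statement on which larvae had more of a transcript. Base 2 of the logarithm is an assumption. The deposited arrays had medians from -0.31 on sitter 3 to -0.11 on sitter 1 before centring. No intensities were analysed here, so the presence of larval tissue markers could not be read as levels, only as ratios. In bulk RNA a change in the number of cells of a type and in RNA per cell cannot be told apart.

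In sitter, limma called 213 of 6793 named genes positive and 585 negative at an adjusted p under 0.05, which is 3.14% and 8.61% of the genes (11.7% together). The mean sizes of the called genes ran from 0.34 to 2.20 on the positive side, with a median of 0.52, and from 0.36 to 2.26 on the negative side, with a median of 0.66. A mean of 1 or more, a ratio of at least 2-fold, was reached by 16 positive and 29 negative genes. All 4 arrays had the same sign for 792 of the 798 called genes and for 3468 of all 6793 genes. The test on these same arrays favours genes of 1 sign, so the first count is no separate support. Over all 19325 features the count was 2573 (13.3%), 522 positive (2.7%) and 2051 negative (10.6%). An unadjusted p under 0.05 was reached by 7456 of the 19325, the base for such counts in the gene lists.

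These counts rested on a spread shared with the Rover arrays and on 2 of the 4 sitter arrays. The sitter arrays fitted alone gave 1 called feature, the gene CG9360, with 6327 features at an adjusted p under 0.10 and 7884 at an unadjusted p under 0.05. Sitter 2 and 3 were scanned at a Cy5 detector gain of 64 and sitter 1 and 4 at 68; without sitter 2 the count of features was 25, without sitter 3 it was 26, without sitter 1 it was 2091 and without sitter 4 it was 1628. Fits of 2 sitter arrays kept all Rover arrays and so took much of their spread from Rover. In them sitter 1 and 4 gave 0 calls by limma (1504 features at an unadjusted p under 0.05), and sitter 2 and 3 gave 3016. The balance of signs moved with the scaling: positive ratios made up 20.3% of the calls after centring, 3.05% without centring and 35.6% when the centred arrays were also scaled to 1 spread. With 2 arrays at each gain, and print lot differing on sitter 1, gain cannot be told apart from other differences between these arrays.

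Ratios were wider on the arrays of the lower gain. The spread of the centred features, as a standard deviation from the median absolute deviation, was 0.55 on sitter 2 and 0.60 on sitter 3, against 0.31 on sitter 1 and 0.34 on sitter 4. Among the 585 negative genes the median of the means was -0.91 on sitter 2 and 3 and -0.41 on sitter 1 and 4, and all 585 were negative in both pairs of arrays. The 213 positive genes had medians of 0.61 and 0.44 in the same pairs, and all 213 were positive in both. Calling genes on these same arrays favours such agreement. Among all 6793 genes, the mean of sitter 1 and 4 had the sign of the sitter mean in 5680. Centred values of the 6793 genes correlated at 0.77 between sitter 2 and 3 and at 0.36 to 0.57 in the other pairs of arrays, across genes that are not independent. The correlation may include effects of spots and dyes common to the arrays, which were not tested.

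**Figure D1:**
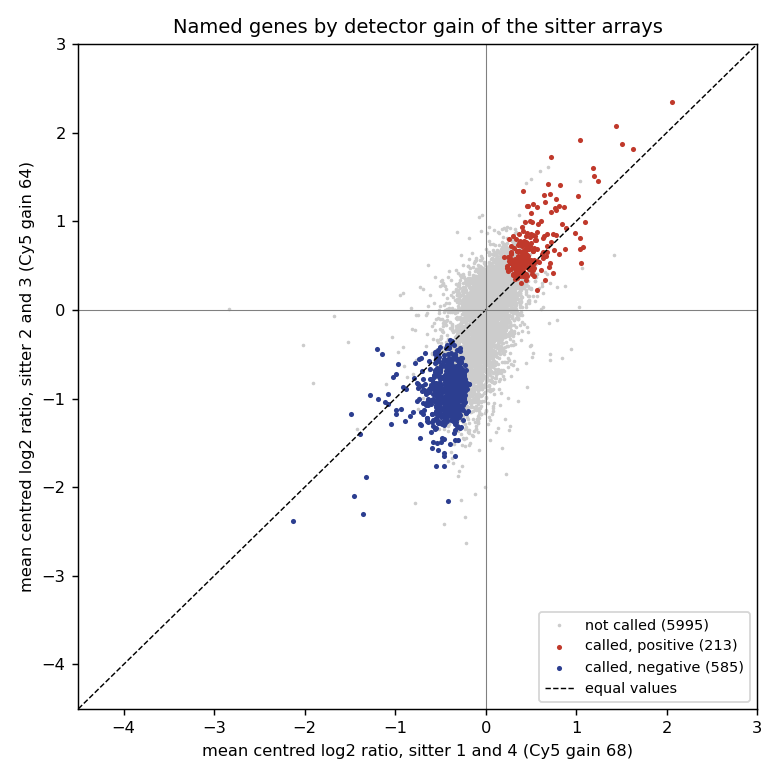
Mean centred log2 ratio of each of 6793 named genes on sitter 1 and 4 (horizontal axis, Cy5 gain 68) and on sitter 2 and 3 (vertical axis, gain 64), with 213 genes called positive in red, 585 called negative in blue and 5995 not called in grey; the dashed line marks equal values. Most negative genes lie below the line, with a median of -0.91 at gain 64 and -0.41 at gain 68, whereas CG9360 at the lower left is near it.

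Gycalpha99B itself was not called. Its centred values were 0.29, -0.30, -0.01 and -0.26 on sitter 1 to 4, with a mean of -0.07 ± 0.28 (SD, n = 4; adjusted p = 0.838). The arrays disagreed in sign, and both spots of the gene are named only by symbol. The sources used here do not say whether they lie in the part changed by the allele, so this is no check of the labels.

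Among the other guanylyl cyclases 2 were called, both negative. Gyc88E and Gyc89Db encode atypical soluble cyclases. Gyc89Db was at -0.30, -1.19, -1.05 and -0.67, a mean of -0.81 ± 0.40 (SD, n = 4; adjusted p = 0.0287). Gyc88E was at -0.22, -1.32, -1.15 and -0.43, a mean of -0.78 ± 0.53 (SD, n = 4; adjusted p = 0.0392). Both genes were negative on every sitter array, with the larger sizes on sitter 2 and 3, and neither passed without sitter 2 (adjusted p of 0.131 and 0.166) or without sitter 3 (0.135 and 0.165). The related Gyc89Da was at -0.47 ± 0.26 (SD, n = 4; adjusted p = 0.195), and the receptor-type cyclase genes CG10738 and CG31183 at -0.71 (adjusted p = 0.0776) and 0.20 (0.248).

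No gene that makes the cyclase's activator or acts downstream of cGMP was called. Nos, for nitric oxide synthase, had a mean of -0.07, and its spot pairs disagreed, one at 0.27 ± 0.12 and one at -0.40 ± 0.58 (SD, n = 4). The kinase genes Pkg21D and CG4839 were at 0.01 and 0.07. Of the phosphodiesterases, which degrade cyclic nucleotides, Pde6 stood at 0.10, Pde8 at 0.26, Pde11 at -0.07 and Pde1c at -0.28. The channel genes CngB and Ih, whose products are gated by cyclic nucleotides, were at 0.41 (adjusted p = 0.0818) and 0.06. In all, 2 of 15 measured cGMP genes (13.3%) were called, close to the 11.7% of all genes, with a median of -0.06 against 0.04 for all genes.

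The gene with the largest ratio was CG9360, of the short-chain dehydrogenase family. It stood at -2.19, -2.59, -2.19 and -2.06 on sitter 1 to 4, a mean of -2.26 ± 0.23 (SD, n = 4; adjusted p = 0.00156; 0.0321 with the sitter arrays alone). The 4 arrays lay close together at both gains. In Rover the ratio had the opposite sign, at 1.06.

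Beyond CG9360, 14 negative genes completed the 15 of largest size. Lst encodes limostatin, a peptide hormone that restrains insulin release. Its values were -1.78, -2.52, -2.09 and -0.92, a mean of -1.83 ± 0.68 (SD, n = 4; adjusted p = 0.0178), negative throughout, with sitter 4 nearest 0. Without sitter 2 or without sitter 3 its adjusted p was 0.0977 and 0.106. Ir93a encodes an ionotropic receptor used for cool and humidity sensing. It was at -1.77, -2.28, -1.92 and -1.13, a mean of -1.77 ± 0.48 (SD, n = 4; adjusted p = 0.00458), and each array lay below -1.

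Among the remaining negative genes several means depended on single arrays. CG11893, of the ecdysteroid kinase-like family, had a mean of -1.61 but ranged from -0.75 on sitter 1 to -2.70 on sitter 3 (adjusted p = 0.0498), and did not pass without any 1 of the 4 sitter arrays. CG14864 was at -3.01 on sitter 2 and between -0.32 and -1.29 elsewhere, and CG14017 at -2.68 on sitter 2 and between -0.52 and -0.85 elsewhere. Without sitter 2 the means of these genes were -0.70 and -0.65 (adjusted p of 0.148 and 0.123). The serine protease gene CG13318 differed most within the higher gain, at -2.68 on sitter 1 and -0.31 on sitter 4, and its mean without sitter 1 was -0.89 (adjusted p = 0.104). A similar order, most negative on sitter 1, was seen for CstF64, a factor of messenger RNA 3′ end formation (-2.05, -1.03, -0.89 and -0.51), and for sip2, named as a septin-interacting protein (-1.89, -1.24, -0.84 and -0.34).

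CG13360 and Ccp84Ab were the steadier members of this group after CG9360. CG13360 was at -1.25, -1.26, -0.75 and -1.14, a mean of -1.10 ± 0.24 (SD, n = 4; adjusted p = 0.0273). The cuticle protein gene Ccp84Ab was at -1.40, -1.42, -1.15 and -0.70, a mean of -1.17 ± 0.34 (SD, n = 4; adjusted p = 0.0253). CG7720 stood at -1.40, CG3819 at -1.11, the carbonic anhydrase gene CAH13 at -1.09 and hec, for a G protein-coupled receptor, at -1.08. All of them were negative on 4 of 4 arrays, as the rule for naming them required, and none of these 6 passed without sitter 2 or without sitter 3.

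The positive side was led by tw, which encodes a protein O-mannosyltransferase. Its values were 2.09, 2.01, 2.68 and 2.03, a mean of 2.20 ± 0.32 (SD, n = 4; adjusted p = 0.00641), all above 2. In Rover tw was at 0.03, but the difference between backgrounds did not pass (adjusted p = 0.0781). CG10560, like CG11893 of the ecdysteroid kinase-like family but opposite in sign, was at 1.33, 1.87, 2.29 and 1.56, a mean of 1.76 ± 0.42 (SD, n = 4; adjusted p = 0.00641). CG3251 was at 1.35, 1.81, 1.81 and 1.91, a mean of 1.72 ± 0.25 (SD, n = 4; adjusted p = 0.00225), with no separation of the gains.

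Drs and its relative Drsl5, genes of the antifungal drosomycin family, followed the same order across arrays. Drs was at 0.97, 1.53, 2.22 and 2.03, a mean of 1.69 ± 0.56 (SD, n = 4; adjusted p = 0.0333). Drsl5 was at 0.78, 1.08, 1.83 and 1.71, a mean of 1.35 ± 0.50 (SD, n = 4; adjusted p = 0.0149). For both genes sitter 3 and 4 were high and sitter 1 low. They were the 2 called of 10 antimicrobial and stress peptide genes (20.0%, against 11.7% of all genes), whose median was -0.11. Drs passed without sitter 1 but not without sitter 2 (adjusted p = 0.131), sitter 3 (0.147) or sitter 4 (0.0649), and Drsl5 passed without sitter 1 or 4 but not without sitter 2 (0.0578) or sitter 3 (0.0979).

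The other positive genes of large size were of mixed kinds. Bace, for an aspartyl protease of the beta-secretase type, averaged 1.48 ± 0.83 (SD, n = 4; adjusted p = 0.0384), with 2.66 on sitter 3 and 0.74 to 1.35 on the others; without sitter 3 its mean was 1.09 (adjusted p = 0.161). Top3alpha, a DNA topoisomerase gene, was at 0.79, 1.64, 1.57 and 1.57, a mean of 1.39 ± 0.40 (SD, n = 4; adjusted p = 0.00641). CG14302 was at 0.98, 1.29, 1.73 and 1.41, a mean of 1.36 ± 0.31 (SD, n = 4; adjusted p = 0.00641). The remaining genes were CG15043 at 1.22, Ssk at 1.15, pst, known from resistance to Drosophila C virus, at 1.11, and CG5704, CG4409, CG13067 and CG3987 between 1.01 and 1.06.

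Only 7 of the 798 called genes (0.103% of all genes) also passed with each sitter array left out in turn, a selection made after these values were seen. They were CG9360 and Ir93a on the negative side and CG10560, CG3251, Top3alpha, CG14302 and Ssk on the positive side. Their largest adjusted p in these fits was 0.0437. Another 15 features that passed the same way were spots with no gene name. tw missed this selection by a narrow margin, at an adjusted p of 0.05 without sitter 3.

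**Figure D2:**
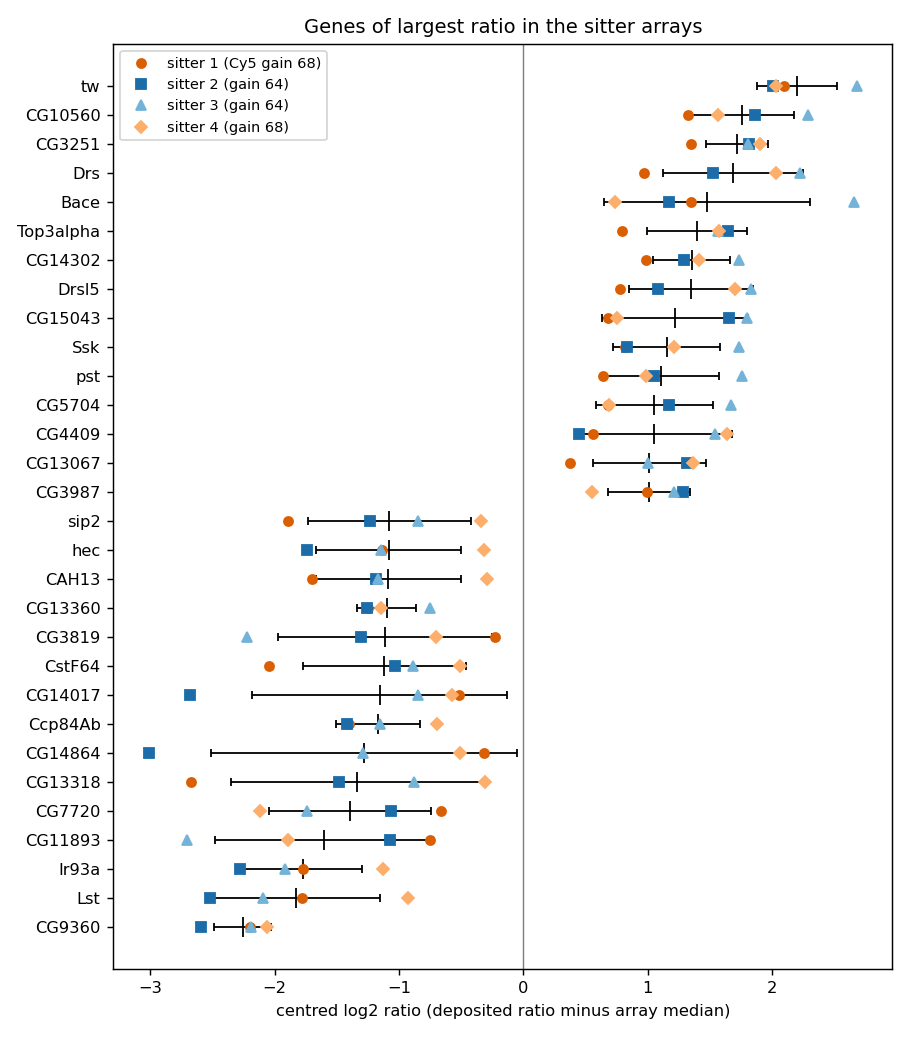
Centred log2 ratio of the 15 positive and 15 negative genes of largest mean on each of 4 sitter arrays (symbols, coloured by Cy5 gain), with the mean (vertical tick) and SD (bar). Values of CG9360, tw and CG3251 lie close together, while CG14864 and CG14017 have 1 array, sitter 2, at -3.01 and -2.68.

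Genes of the septate junctions, the barriers between epithelial cells, included opposite signs. Ssk and Tsp2A encode membrane proteins of the smooth septate junction, the form found in the midgut. Ssk was at 0.82, 0.84, 1.74 and 1.22, a mean of 1.15 ± 0.43 (SD, n = 4; adjusted p = 0.0119), and Tsp2A at 0.49, 0.48, 1.21 and 0.55, a mean of 0.68 ± 0.35 (SD, n = 4; adjusted p = 0.0328). Both genes were highest on sitter 3. pasi1, which acts at the pleated septate junctions of other epithelia, was at -0.58 ± 0.16 (SD, n = 4; adjusted p = 0.0275). Of 15 measured members 2 were positive, 1 negative and 12 not called, with a median of 0.19; the share called was 20.0%, against 11.7% of all genes, and 4 had an unadjusted p under 0.05. Of all 19325 features 7456 had such an unadjusted p. Without sitter 2 or without sitter 3, Ssk was the 1 member called.

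Chemosensory genes, mostly odorant-binding proteins that carry odorants or other small hydrophobic molecules, had the lowest median of the 21 lists, -0.55 against 0.04 for all genes. Of 26 measured members, 10 were called negative (38.5%, against 8.61% of all genes), 0 positive and 16 not. After Ir93a the largest were Obp56g at -1.05 ± 0.84, Obp56e at -0.79 ± 0.27 and Obp57c at -0.75 ± 0.32 (SD, n = 4; adjusted p of 0.0361, 0.0253 and 0.0333). For Obp56g the spot pairs gave -0.56 and -1.55, the second pair reaching -3.65 on sitter 3. The list's median was -0.74 on sitter 2 and 3 and -0.28 on sitter 1 and 4, and Ir93a was the 1 member called without sitter 2 or without sitter 3. The spread of the arrays moved with this result, and its part in it was not tested. In Rover the list's median was -0.54, with 13 of 26 members negative and 0 positive. Among all genes 21.2% were called negative there. In the difference between backgrounds 0 members were called, against 0.0883% of all genes.

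Genes of detoxification enzymes, which modify or conjugate toxins and hormones, were called in 20.4% of cases, against 11.7% of all genes, and among all genes too negative calls (8.61%) outnumbered positive ones (3.14%). Of 108 members, 20 were negative, 2 positive and 86 not called, with a median of -0.23; without centring the negative count was 46 and the positive count 0. Cyp6a8 was at -1.38, -1.20, -1.06 and -0.61, a mean of -1.06 ± 0.33 (SD, n = 4; adjusted p = 0.0149), and its 3 spot pairs gave -1.37, -0.80 and -1.02. Cyp313a1 was at -1.02, Cyp313a4 at -0.82 and Cyp28c1 at -0.81 (adjusted p of 0.047, 0.0341 and 0.0335), each with its largest size on sitter 2. The median of the list was -0.33 at the lower gain and -0.11 at the higher. Without sitter 2 or without sitter 3, 0 members were called by limma. On all arrays 52 of the 108 had an unadjusted p under 0.05, as had 7456 of all 19325 features. In Rover the list's median was -0.17, with 40 members negative and 23 positive. Among all genes 21.2% were negative and 25.2% positive there. In the difference between backgrounds 0 members were called, against 0.0883% of all genes.

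Hormone and peptide-processing genes had 3 of 19 members called (15.8%, against 11.7% of all genes), all negative, as were 585 of the 798 called genes. With Lst these were amn, for the amnesiac neuropeptide, at -0.70 ± 0.40, and svr, for a carboxypeptidase that trims peptides, at -0.70 ± 0.32 (SD, n = 4; adjusted p of 0.0315 and 0.0301). The insulin-like peptide gene Ilp2 was at 0.25 (adjusted p = 0.114), Capa, for a diuretic and myotropic neuropeptide precursor, at 0.27 (0.0932), and Rab26, of the small GTPases that act on secretory vesicles, at 0.40 (0.0518). Of 12 ecdysone and juvenile hormone genes 1 was called (8.33%), Jhedup, related to juvenile hormone esterase, at -0.81 (adjusted p = 0.027).

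In the cuticle list 6 of 51 members were negative, 1 positive and 44 not called, and the median was 0.08. The share called, 13.7%, was near the 11.7% of all genes. Besides Ccp84Ab, Cpr23B was at -0.92 ± 0.53 and Ccp84Ae at -0.63 ± 0.54, while Cpr73D was at 0.64 ± 0.28 (SD, n = 4; adjusted p of 0.029, 0.0486 and 0.0304). Among digestive enzymes of the midgut 2 of 34 (5.88%, against 3.14% of all genes) were positive, Bace and the maltase gene Mal-A2, and 0 were negative by limma (7 positive and 2 negative at an unadjusted p under 0.05). Over all 19325 features 7456 had an unadjusted p under 0.05. Mal-A2 had a narrow range, 0.40, 0.47, 0.54 and 0.58 on sitter 1 to 4 (mean 0.50 ± 0.08, SD, n = 4; adjusted p = 0.0333).

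In lists of basic cell functions the shares called were mostly near the 11.7% of all genes, at 8.7% for cytosolic ribosomal proteins, 9.76% for oxidative phosphorylation, 10.4% for mitochondrial ribosomal proteins and 16.7% for chaperones. Cytosolic ribosomal protein genes had a median of 0.18, with RpL27 at 0.56 called positive, RpL32 at -0.49 called negative and 21 of 23 not called. RpL32 was printed as 20 spots, whose sitter means ran from -0.91 to 0.27. Oxidative phosphorylation genes also had a median of 0.18, with the complex I gene ND-B17.2 at 0.57 and the ATP synthase gene ATPsynD at 0.46 positive, COX6CL at -0.67 and COX7AL at -0.48 negative, and 37 of 41 not called. Mitochondrial ribosomal proteins had 1 positive member, mRpL51 at 0.58, 4 negative, among them mRpL13 at -0.77, mRpS28 at -0.71 and mRpL46 at -0.61, and 43 not called. Of 18 chaperone genes 3 were negative, Hsp60D at -0.75, Hsc70-1 at -0.67 and DnaJ-1 at -0.61. DnaJ-1 was printed as 16 spots, whose sitter means ran from -1.695 to 0.242. None of 30 proteasome genes was called by limma at an adjusted p under 0.05. The same held with the sitter arrays of the lower gain fitted beside the Rover arrays. Without centring 3 proteasome genes were called negative, and with scaling 2 were positive and 2 negative. Those settings called 4583 and 6870 of all 19325 features. In the main fit 6 proteasome genes had an unadjusted p under 0.05, as had 7456 of all 19325 features.

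Of 18 genes of glycolysis and gluconeogenesis, whose median was -0.10, 1 was called (5.56%, against 11.7% of all genes), Glyp for glycogen phosphorylase, at -0.39, -0.45, -0.62 and -1.05, a mean of -0.63 ± 0.30 (SD, n = 4; adjusted p = 0.0451). It was the 1 gene of the list with each array below -0.3. Markers of other cell types were called by limma about as often as all genes (11.7%) or less: 0 of 11 haemocyte and basement membrane genes (3 at an unadjusted p under 0.05), 1 of 12 muscle genes (TpnC4, -0.63), 1 of 10 neuronal genes (Csp, a synaptic chaperone, 0.50) and 1 of 12 male germ line genes (ocn, 0.86) were called. Their list medians ran from -0.21 for the male germ line to 0.10 for muscle. Without centring 3 haemocyte and basement membrane genes were called negative, and with scaling 3. Those settings called 4583 and 6870 of all features. Among all 19325 features 7456 had an unadjusted p under 0.05.

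**Figure D3:**
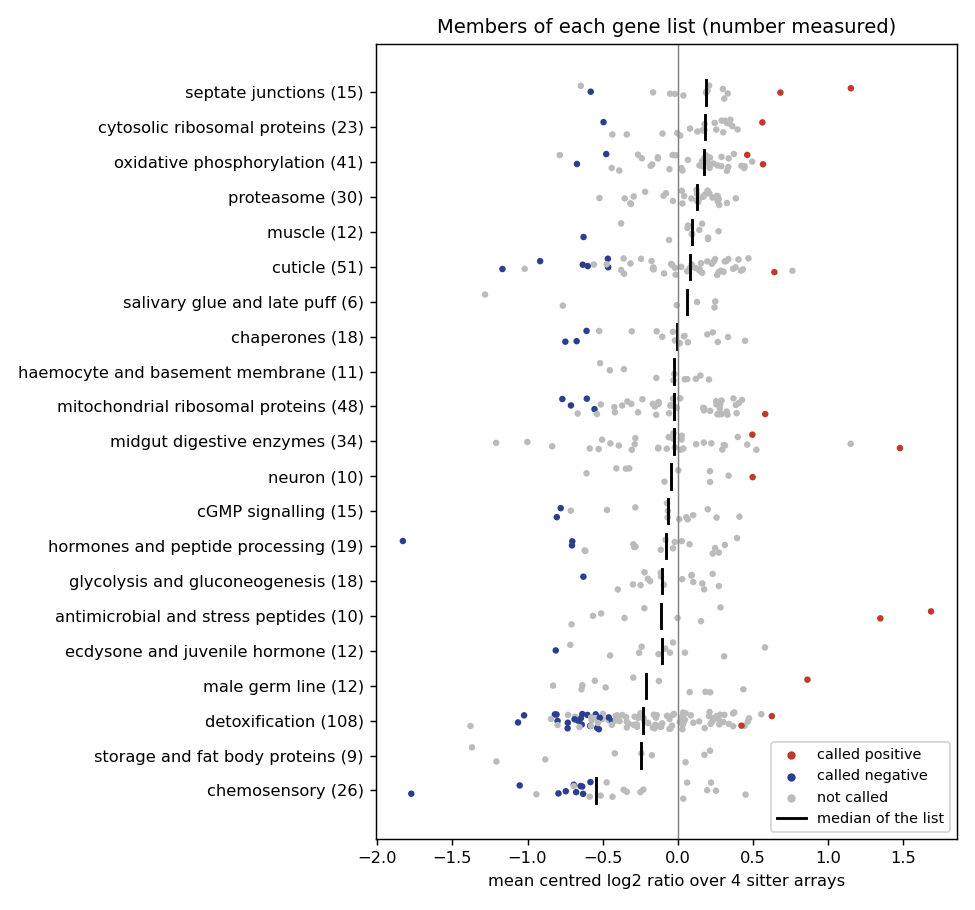
Mean centred log2 ratio over 4 sitter arrays of every measured member of 21 gene lists, ordered by the list median (black line), with members called positive in red, called negative in blue and not called in grey. The median runs from -0.55 for chemosensory genes to 0.19 for septate junction genes.

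Storage protein genes of the fat body were not called, and their arrays differed widely. Lsp2, a larval serum protein that stores amino acids for metamorphosis, was at -0.13, -0.47, -1.18 and -3.70 (adjusted p = 0.101), and Fbp2, another fat body protein, at 0.09, -0.14, -0.65 and -4.13 (0.245). In both genes sitter 4 stood far below the other arrays. Fbp1, for the receptor of larval serum proteins, had another order, at -0.09, -1.32, -1.76 and -0.36 (adjusted p = 0.14), lowest on sitter 2 and 3. Yolk protein genes Yp1, Yp2 and Yp3 were at 0.05, -0.42 and 0.22, and the lipoprotein gene apolpp at -0.24. Of the 9 measured storage genes 0 passed limma's test at an adjusted p under 0.05 and 2 had an unadjusted p under it. For salivary glue and late puff genes, which ecdysone switches on before pupariation, the counts were 0 and 1 of 6. The like counts over all 19325 features were 2573 and 7456. Without centring each list had 1 negative call. With scaling 1 storage gene was negative, and the glue list had 1 positive and 1 negative call. The glue list also had 1 negative call with sitter 2 and 3 fitted beside the Rover arrays.

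Genes that departed on 1 array were not the same on each. A gene was listed when its value on an array lay more than 2 from the median of the other 3, a rule set after the values were seen. There were 14 such genes on sitter 2, all below the others, among them wda at -3.62 and PIG-F at -3.27. Sitter 3 had 5, again all below, including the late puff gene Eig71Ee at -4.72 and LManV and LManVI, which encode lysosomal alpha-mannosidases, at -3.43 and -3.77. On sitter 4, 6 genes lay below and 4 above, among them CG1850 at -5.61, the fucosyltransferase gene FucTB at -3.42 and the odorant-binding protein gene Obp99b at -3.26 with Lsp2 and Fbp2, and CG30059 at 2.62 above. Sitter 1 had 2, CG17191 at 2.23 and SPH93, a serine protease homologue, at -0.53 against 0.52 to 2.61 elsewhere.

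**Figure D4:**
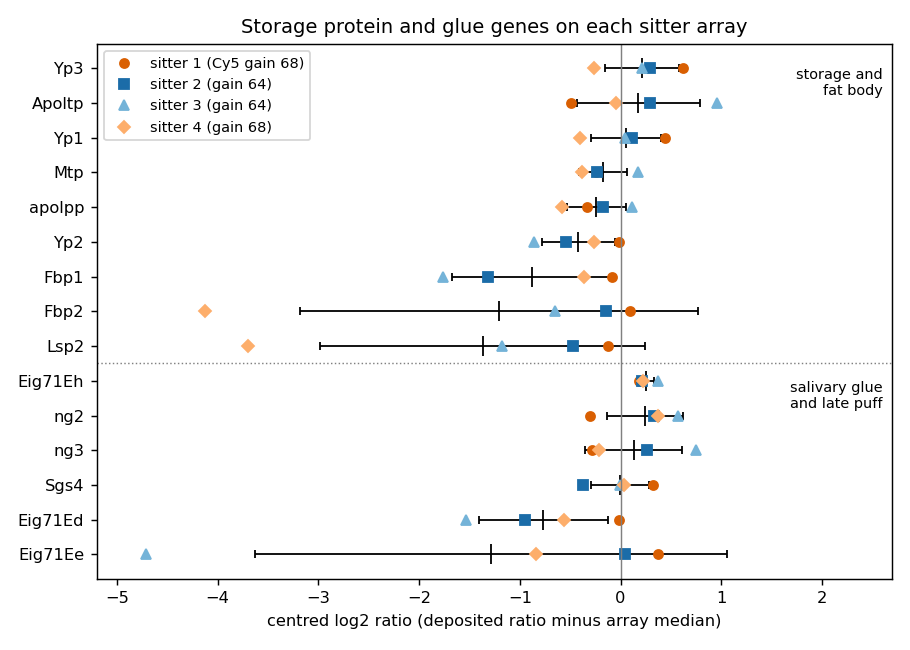
Centred log2 ratio of 9 storage and fat body genes and 6 salivary glue and late puff genes on each of 4 sitter arrays (symbols), with the mean (vertical tick) and SD (bar). Sitter 4 stands apart for Lsp2 (-3.70) and Fbp2 (-4.13), and sitter 3 for Eig71Ee (-4.72).

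Calls near the mutated gene were about as frequent as elsewhere. In the gene order of the Release 6 annotation, 22 of the 200 measured genes nearest to Gycalpha99B on chromosome arm 3R, 100 on each side, were called (11%), 4 positive and 18 negative. The share over the whole arm was 11.1%, and over the other large arms it ran from 10% on X to 14.2% on 3L. Directly beside it, Cap-D2, for a condensin subunit, was at 0.26, 0.60, 0.71 and 0.29, a mean of 0.47 ± 0.22 (SD, n = 4; adjusted p = 0.0345), and Obp99d, next but one on the other side, at -0.58 ± 0.39 (0.0498).

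The sitter ratios were set against Rover to ask whether they depend on the background. limma called 15 of 19325 features in the difference (0.0776%), of which 6 were named genes (0.0883%). For each of the 6, every sitter array lay on the other side of every Rover array, and the signs of the means were opposite. The genes were called on these same values, which favours such separation, so it is no further evidence of a difference. CG9360 had a difference, Rover minus sitter, of 3.32 ± 0.25 (SE; adjusted p = 0.000844). The serine protease gene CG11911 was at 0.54, 0.53, 0.27 and 0.19 in sitter, not called against 0 (adjusted p = 0.0849), and at -3.55 in Rover, a difference of -3.93 ± 0.20 (SE; adjusted p = 8.78e-05).

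The 4 further genes had smaller differences. Prx6c, a peroxiredoxin gene, was at -0.52, -0.88, -0.95 and -0.83 in sitter and averaged 1.13 in Rover (difference 1.93 ± 0.23, SE; adjusted p = 0.025). Alp7, an alkaline phosphatase gene, averaged -0.55 in sitter and 0.97 in Rover (1.52 ± 0.20, SE; 0.0365). PPO2, for a prophenoloxidase of the crystal cells, was at -0.36 in sitter, not called against 0 (adjusted p = 0.0595), and 0.82 in Rover (1.18 ± 0.16, SE; 0.0438). Prx6c lost its call without Rover 2 or 3 or any sitter array (adjusted p of 0.0504 to 0.117), and Alp7 and PPO2 lost theirs without any 1 of the 8 arrays (0.0772 to 0.18). With ratios as deposited or with scaling, none of Prx6c, Alp7, PPO2 and CG7382 was called in the difference, and CG11911 was not called with scaling.

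CG7382 was represented by 2 pairs of spots that gave opposite results. One pair stood at 0.29 ± 0.18 in sitter and 0.14 ± 0.24 in Rover (SD, n = 4). The other pair was at -2.19, -2.26, -1.93 and -1.91 in sitter, a mean of -2.07 ± 0.18, and at 0.93 ± 0.32 in Rover. The gene's mean of -0.89 in sitter (adjusted p = 0.0145) and its difference of 1.42 (adjusted p = 0.025) thus come from 1 pair, and the difference did not pass without any 1 of the 8 arrays (adjusted p of 0.0503 to 0.11). Among the 57 called genes with more than 2 spots, 4 had pairs of opposite sign.

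**Figure D5:**
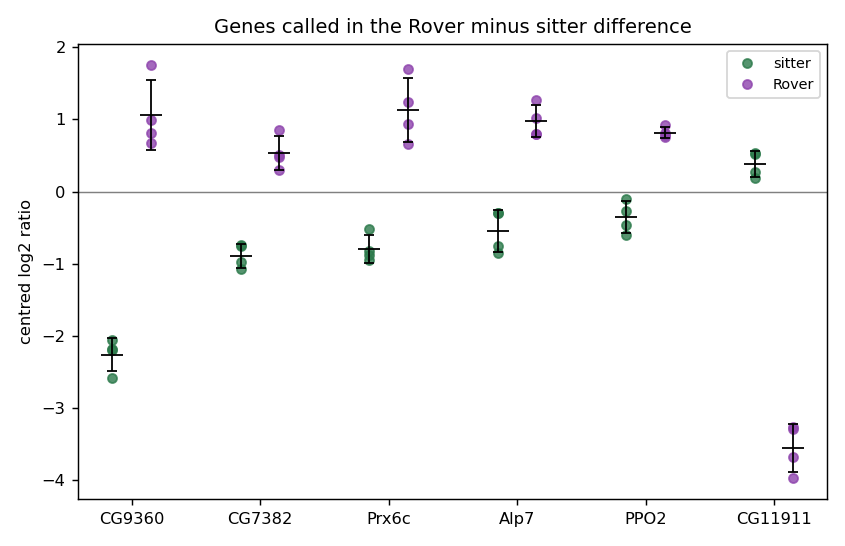
Centred log2 ratio of the 6 named genes called in the difference between backgrounds, on each of 4 sitter arrays (green) and 4 Rover arrays (purple), with means and SD. The values of the backgrounds do not overlap for any of the 6, which were chosen by the difference in these same values. CG9360 is at -2.26 in sitter and 1.06 in Rover.

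The signs of the sitter ratios were set beside those in Rover, where 46.4% of all genes were called and 5632 of 6793 genes had the same sign as in sitter. Of the 15 positive genes 15 were positive in Rover and 13 were called there, against 25.2% of all genes called positive in Rover. Of the 15 negative genes 12 were negative in Rover and 7 were called, against 21.2%, and CG9360 was called with the opposite sign. The exceptions in sign were CG9360, Lst at 0.09 and CG13360 at 0.53 in Rover, and the differences for Lst and CG13360 did not pass (adjusted p of 0.149 and 0.101). Among all genes called in sitter, 168 of 213 positive and 478 of 585 negative ones were called with the same sign in Rover. Effects of spots, dyes or print shared by arrays of both backgrounds may enter these counts, which was not tested. The spread of each gene, which the tests of both backgrounds share, does enter them.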

How the data were processed

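Spot signals came from a ScanArray 4000 scanner and QuantArray software, version 3, per the labels. The deposited values are 1 log2 ratio per spot and array, normalised by the authors; the normalisation, the log base, the dyes and the numerator are not given in the sources used here. Replicate 1 of each background was of another print lot and was hybridised for 15.75 hours, the others for 17.75.

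Of 27648 spots, 15116 had 1 gene symbol in the platform annotation, 102 had several and 12430 were not listed. The Release 6 gene table held the gene of 14894 of them. Spots of 1 gene were averaged per array (6793 genes, 6106 from 2 spots), 12532 other spots were kept singly, and each array was centred on its median over these 19325 features. Duplicate spots correlated at 0.63 to 0.80 within a sitter array. limma 3.58.1 in R 4.3.3 fitted all 8 arrays with 1 mean for each background, leaving 6 residual degrees of freedom. A feature was called where its Benjamini-Hochberg adjusted p, taken across the 19325 features, was under 0.05. The number of arrays limits the precision.

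Genes were named by rule: the 15 of largest mean in each direction among those called and of 1 sign on 4 arrays, all cGMP genes, up to 4 called members of each list, and genes called in the difference whose arrays did not overlap. Other genes, the single-array departures, the spot pairs, the gene neighbours and the genes called with each array left out were chosen after their values were seen. The lists, members and alternatives were chosen with earlier results of these data known. Data were simulated for 19325 features with independent noise, of which 200 were changed by a log2 ratio of 0.5, 1 or 2. The sitter test recovered 0%, 76.5% and 96.5% of them. The real data had 2573 calls, which makes the adjusted threshold easier to pass. These shares therefore do not carry over to the real data. Same-numbered arrays of the backgrounds deviated together weakly (correlations of 0.06 to 0.31), so the numbers were not taken as pairs. Alternatives covered centring, scaling, moderation, array weights, print lot, gain, features, spots, a fold threshold, single arrays and a replicate block. The gene foraging itself and the cyclase beta subunit gene had no named spot and are not analysed here.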

Additional observations from a re-analysis of the deposited data

Results flagged for a closer look

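Among 83 genes named by rule, 7 had 1 sitter array far from the other 3 by Dixon's test at its 95% critical value; chance alone gives this for about 5% of genes. These were tw on sitter 3 (2.68), Top3alpha on sitter 1 (0.79), CG14017 on sitter 2 (-2.68), Ccp84Ae on sitter 3 (-1.43), mRpL13 on sitter 2 (-1.54), Tsp2A on sitter 3 (1.21) and pasi1 on sitter 4 (-0.82).

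The test of the difference between backgrounds, Rover minus sitter, passed for CG9360 (3.32), CG11911 (-3.93), Prx6c (1.93), Alp7 (1.52), CG7382 (1.42) and PPO2 (1.18).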

How the results depend on the processing

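The count of features called in sitter, 2573, moved by over 1.5 times under several choices. It was 4583 without centring, 6870 with scaling, 3901 with array weights and 4894 with gain as a term. The sitter arrays alone gave 1, and a fold threshold of 1.5 gave 4. With the Rover arrays kept, the sitter arrays at gain 68 gave 0. With an array left out the count ran from 25 to 2643. Named genes fitted alone gave 1170 calls, against 798 named genes called in the main fit. The cause of these shifts was not tested, and some settings also use fewer arrays or features. The difference between backgrounds had 15 calls, 9 without centring, 1 with scaling, 25 with array weights and 5 to 11 with an array left out. Named genes fitted alone gave 23 calls in the difference, against 6 named genes in the main fit. The replicate block gave 4083 calls in sitter and 6 in the difference, and not every array correlated best with its own number. Of the 30 genes of largest ratio 1 was called from the sitter arrays alone and 7 to 28 with an array left out. With the sitter arrays at gain 68 beside the Rover arrays 0 were called. The other settings kept 26 to 30, leaving out named genes alone, single spots and the fold threshold. With the fold threshold only 2 named genes were called in all. None of the 30 changed sign under the alternatives run. Among the other named genes 7 lost their call without centring, all positive in the main fit. They were RpL27, Csp, ocn, ND-B17.2, ATPsynD, mRpL51 and Mal-A2 (limma, adjusted p of 0.0649 to 0.135). Among the cGMP genes that were not called, signs turned without centring for CG4839 (-0.13), Ih (-0.14), Pde6 (-0.092) and Pkg21D (-0.19), and at gain 68 for Gycalpha99B (0.015), Ih (-0.13), Nos (0.053), Pde11 (0.036) and Pkg21D (-0.18). Pkg21D also turned when centred on named genes (-0.035), with scaling (-0.055) and with array weights (-0.0081). With a sitter or Rover array left out, the mean of CG4839 ran from -0.0037 to 0.12, Ih from -0.0086 to 0.13, Nos from -0.15 to 0.073, Pde11 from -0.17 to 0.11, Pkg21D from -0.068 to 0.088 and Gycalpha99B from -0.19 to 0.0061. Without sitter replicate 2 the turned values were 0.0061 for Gycalpha99B, -0.0086 for Ih, 0.073 for Nos and -0.068 for Pkg21D, and without sitter replicate 3 they were -0.0037 for CG4839, -0.0039 for Ih, 0.11 for Pde11 and -0.038 for Pkg21D. Signal over background was not analysed here, so it is unknown which ratios come from dim spots.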
